A study of Mus musculus with 8 samples.

Results

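Megalin and cubilin are the receptors with which the proximal tubule of the kidney takes filtered proteins and carrier-bound vitamins back from the forming urine. Ligands bound at the brush border are drawn into clathrin-coated pits, released in acidified endosomes and broken down in lysosomes, while the receptors return to the surface. The 7 genes described here were chosen as a named list of this route: Lrp2 (megalin), Cubn (cubilin), Amn (amnionless), Dab2, Clcn5, Ctns and Fcgrt. Each symbol matched a single Ensembl identifier, and all 7 of the 7, out of 47643 genes in the files, held enough counts to be tested. Gene positions below are on mm10.

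Whole kidneys of 8 mice were compared by sequencing of polyadenylated RNA. The cKO group held 4 mice of the genotype Six2-Cre;Cox10-fl/fl, aged 3 months in replicates 1, 3 and 4 and 2.5 months in replicate 2. The WT group held 4 wild-type mice of the same ages by replicate number, and no Cre or floxed allele is named for them. Cox10 encodes heme A farnesyltransferase, needed to build cytochrome c oxidase of the mitochondrial respiratory chain. Six2-Cre acts in nephron progenitors, so the nephron epithelium that descends from them can carry the deletion, while collecting duct, vessels and leukocytes have another origin.

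The libraries held 9454830 to 14837448 counts in cKO and 9731334 to 15838026 in WT. Values are given as CPM, the count of a gene scaled to a common library total after TMM normalisation, and each SD describes the 4 kidneys of 1 genotype. Cox10 averaged 18.4 ± 5.12 CPM in cKO and 21.0 ± 2.47 CPM in WT (SD, n = 4 each; edgeR adjusted p = 0.619), and since the sources used here name no floxed exon, the gene total cannot check the genotypes. Counts of Y-linked genes were present in cKO 3 and in WT 2, WT 3 and WT 4 and were 0 in cKO 1, cKO 2, cKO 4 and WT 1, so the sexes are unevenly spread over the groups and contrasts within each are given beside the main result. The libraries also differed in the level of long against short genes, which was highest in WT 3 and WT 4 and lowest in cKO 2, and values without WT 3 and WT 4 are given beside the members they touch. Of 33 called genes outside the members that were taken up by the naming rule, 23 were not called without these libraries. Markers of the kidney epithelium, among them Slc34a1, Umod, Podxl and Aqp2, were present in all 8 libraries.

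The start regions of the receptor that fell, of its partner cubilin and of cubilin's anchor amnionless, which differed least from WT of the 3, are shown for orientation, since the files hold no measurement of promoters. Each window is from RefSeq on GRCm38.p6 and runs from 250 bases before to 50 bases after the annotated start, with matches to the searched motifs in capitals. The Lrp2 window is chr2:69585980-69586279 (minus strand), the Cubn window chr2:13491827-13492126 (minus strand) and the Amn window chr12:111270846-111271145 (plus strand).
Lrp2: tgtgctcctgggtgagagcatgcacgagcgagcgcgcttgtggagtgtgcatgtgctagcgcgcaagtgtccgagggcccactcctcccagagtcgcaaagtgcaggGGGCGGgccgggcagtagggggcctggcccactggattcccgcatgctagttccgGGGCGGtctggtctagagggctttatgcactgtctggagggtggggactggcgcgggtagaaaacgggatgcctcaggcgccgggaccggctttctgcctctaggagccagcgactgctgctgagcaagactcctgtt
Cubn: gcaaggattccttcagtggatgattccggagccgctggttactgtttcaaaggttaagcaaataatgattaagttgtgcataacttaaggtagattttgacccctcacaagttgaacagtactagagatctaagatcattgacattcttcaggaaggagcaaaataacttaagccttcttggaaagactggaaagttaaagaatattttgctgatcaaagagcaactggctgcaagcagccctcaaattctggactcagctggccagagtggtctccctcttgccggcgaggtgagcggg
Amn: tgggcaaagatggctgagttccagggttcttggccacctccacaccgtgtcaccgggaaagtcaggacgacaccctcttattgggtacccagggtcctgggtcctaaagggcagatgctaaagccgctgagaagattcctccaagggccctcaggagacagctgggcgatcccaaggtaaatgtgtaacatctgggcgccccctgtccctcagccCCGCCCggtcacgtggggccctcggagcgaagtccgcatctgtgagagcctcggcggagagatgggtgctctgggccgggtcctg
The motifs searched on both strands were CAAAGTCC for HNF4, TCACGTGA for the lysosomal CLEAR element, GGGCGG for the GC box and TATAAA for the TATA box. HNF4 factors are nuclear receptors of the proximal tubule. The Lrp2 window held 2 matches to GGGCGG and the Amn window held 1 on the opposite strand, a motif present in 35.7% of 32851 RefSeq start windows and in 60.3% of the 13593 that belong to tested genes. The Cubn window held 0 matches to the motifs searched. The Lrp2 and Cubn windows also differed in base composition, with 65.0% and 44.3% G or C and 20 and 5 CpG dinucleotides.

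Lrp2 was the member that passed the test, lower in cKO kidneys, and no member was called higher. Of the 7 members 1 was called, where 16.7% of the 13829 genes tested were called in either direction and 7.14% were called lower, so this share is near the background. Over all genes 1323 were called higher and 987 lower, and with scaling by library size alone 1866 and 550. At an unadjusted edgeR p under 0.05 there were 3 members lower and 0 higher, and 0 were called higher by DESeq2 or limma-voom. More of all tested genes lie under that unadjusted p than the 16.7% called. Their share was not counted, so the 3 members are not read as an excess. The members' median log2 fold change, cKO over WT, was -0.31, beside -0.01 over all tested genes. Of the log2 fold changes 6 were negative and only that of Ctns was positive, and the members ran from a marked difference at megalin to differences within the replicate spread at Amn, Clcn5, Ctns and Fcgrt.

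**Figure D1:**
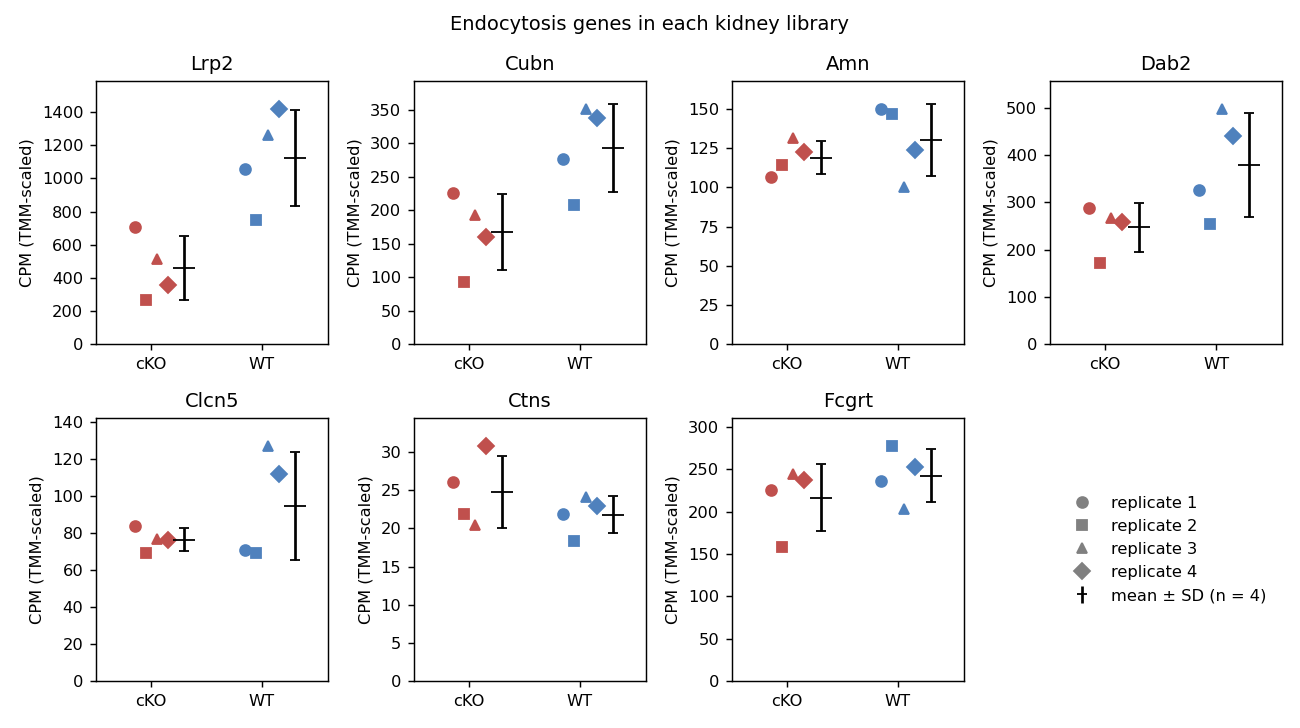
CPM of the 7 endocytosis genes in each library, cKO left of WT, with a marker shape for each replicate number and the mean ± SD (n = 4) beside the points. All 4 cKO libraries lie below all 4 WT libraries for Lrp2 and for no other member.

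Lrp2 (ENSMUSG00000027070, chromosome 2, 69424340 to 69586065, 16701 bases of merged exons) encodes megalin, a very large receptor of the LDL receptor family that binds albumin, vitamin carriers and many hormones. It had 705, 269, 513 and 355 CPM in cKO 1 to cKO 4, against 1056, 751, 1264 and 1418 CPM in WT 1 to WT 4. The cKO and WT libraries did not overlap, which held for 9.56% of tested genes in that direction, 13.1% in the other and 22.6% in either, with cKO 2 lowest and WT 4 highest. The means were 461 ± 192 CPM in cKO and 1122 ± 289 CPM in WT (SD, n = 4 each), so that cKO held 41.0% of the WT level. The log2 fold change was -1.28 (SE 0.34, 95% interval -2.04 to -0.53, edgeR adjusted p = 0.0263). An exact two-sided permutation test of log2 CPM gave p = 0.0286, the smallest value that the 35 splits allow. The Lrp2 values rested on 2477 to 11544 counts in cKO and 6538 to 21928 counts in WT.

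Cubn (ENSMUSG00000026726, chromosome 2, 13276338 to 13491813, 14935 bases of merged exons) encodes cubilin, which has no membrane span of its own and binds albumin, transferrin and the intrinsic factor that carries cobalamin. It had 226, 93.3, 193 and 160 CPM in cKO 1 to cKO 4, against 276, 207, 351 and 338 CPM in WT 1 to WT 4. The groups overlapped through cKO 1, which lay above WT 2. The means were 168 ± 56.6 CPM in cKO and 293 ± 65.9 CPM in WT (SD, n = 4 each), with a log2 fold change of -0.80 (SE 0.30, 95% interval -1.45 to -0.16). This did not pass, the edgeR adjusted p being 0.0844 and the exact permutation p 0.0571. Cubn passed in 3 of the 24 alternatives, with an adjusted p of 0.0455 in edgeR with the replicate number as a block, 0.0180 in edgeR with an age term and 0.0381 in DESeq2. It did not pass in the others, among them a sex term at -0.71, library size alone at -0.64 and the fit without WT 3 and WT 4 at -0.51 (edgeR adjusted p = 0.272, 0.189 and 0.436), nor with an offset for exon length, at -0.46 (edgeR adjusted p = 0.207). Its exons overlap the low-count transcript Gm13270 on the opposite strand, and reads of the pair were not separated here.

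Amn (ENSMUSG00000021278, chromosome 12, 111271095 to 111276426, 1843 bases of merged exons) encodes amnionless, the membrane protein that anchors cubilin and carries it to the cell surface. It had 107, 114, 131 and 122 CPM in cKO 1 to cKO 4, against 150, 147, 100.02 and 124 CPM in WT 1 to WT 4. The groups overlapped, and the lowest value of all was that of WT 3. The means were 119 ± 10.5 CPM in cKO and 130.1 ± 23.1 CPM in WT (SD, n = 4 each), a difference smaller than the WT spread (log2 fold change -0.13, 95% interval -0.56 to 0.30, edgeR adjusted p = 0.674). A decrease of Amn as large as the estimate for Lrp2 lies outside this interval.

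Dab2 (ENSMUSG00000022150, chromosome 15, 6299788 to 6440712) encodes the adaptor that links the tails of megalin to clathrin and to the myosin that moves the vesicle inward. It had 289, 172, 268 and 259 CPM in cKO 1 to cKO 4, against 325, 255, 497 and 440.4 CPM in WT 1 to WT 4. Of the cKO libraries 3 of 4 lay above WT 2, and WT 3 and WT 4 stood above the rest. The means were 247 ± 51.3 CPM in cKO and 379 ± 109.6 CPM in WT (SD, n = 4 each), and the log2 fold change of -0.62 (SE 0.28, 95% interval -1.22 to -0.01) missed the threshold (edgeR adjusted p = 0.142). Without WT 3 and WT 4 it was -0.21. The processed pseudogene Gm18888, on the opposite strand, overlaps a stretch of its exons and was not analysed here.

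Clcn5 (ENSMUSG00000004317, chromosome X, 7153810 to 7319358) encodes the chloride and proton exchanger of early endosomes that is mutated in Dent disease, a human disorder with loss of small proteins in the urine. It had 83.6, 69.0, 76.5 and 76.2 CPM in cKO 1 to cKO 4, against 70.5, 69.1, 127 and 112 CPM in WT 1 to WT 4. The cKO libraries lay close to WT 1 and WT 2, and only WT 3 and WT 4 were above every cKO library. The means were 76.3 ± 5.98 CPM in cKO and 94.5 ± 29.2 CPM in WT (SD, n = 4 each; log2 fold change -0.31, 95% interval -0.82 to 0.20, edgeR adjusted p = 0.381). The sign turned without WT 3 and WT 4, to 0.15, and with an offset for exon length, to 0.02.

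Ctns (ENSMUSG00000005949, chromosome 11, 73183596 to 73199042) encodes cystinosin, which exports cystine from lysosomes after proteins have been digested there. It had 26.1, 21.9, 20.4 and 30.8 CPM in cKO 1 to cKO 4, against 21.9, 18.4, 24.1 and 22.9 CPM in WT 1 to WT 4. The groups overlapped, and cKO 4 was highest. The means were 24.8 ± 4.67 CPM in cKO and 21.8 ± 2.46 CPM in WT (SD, n = 4 each; log2 fold change 0.18, 95% interval -0.26 to 0.62, edgeR adjusted p = 0.552). Ctns had the fewest counts of the members, with 201 to 472 counts in cKO and 160 to 354 counts in WT.

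Fcgrt (ENSMUSG00000003420, chromosome 7, 45092990 to 45103851) encodes the heavy chain of the neonatal Fc receptor, which binds albumin and immunoglobulin G in acid endosomes and returns them intact. It had 225, 159, 245 and 238 CPM in cKO 1 to cKO 4, against 236, 278, 203 and 253 CPM in WT 1 to WT 4. The groups overlapped, with cKO 2 lowest. The means were 217 ± 39.5 CPM in cKO and 242 ± 31.3 CPM in WT (SD, n = 4 each; log2 fold change -0.16, 95% interval -0.65 to 0.33, edgeR adjusted p = 0.646). Its light chain partner B2m, also part of all class I MHC molecules, had 531, 471, 608 and 720 CPM in cKO 1 to cKO 4, against 395, 222, 154 and 168 CPM in WT 1 to WT 4. The B2m groups did not overlap and B2m rose, by 1.31 on the log2 scale (SE 0.33, edgeR adjusted p = 0.0197), a call lost without WT 3, WT 4 or cKO 4 and with a sex term.

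**Figure D2:**
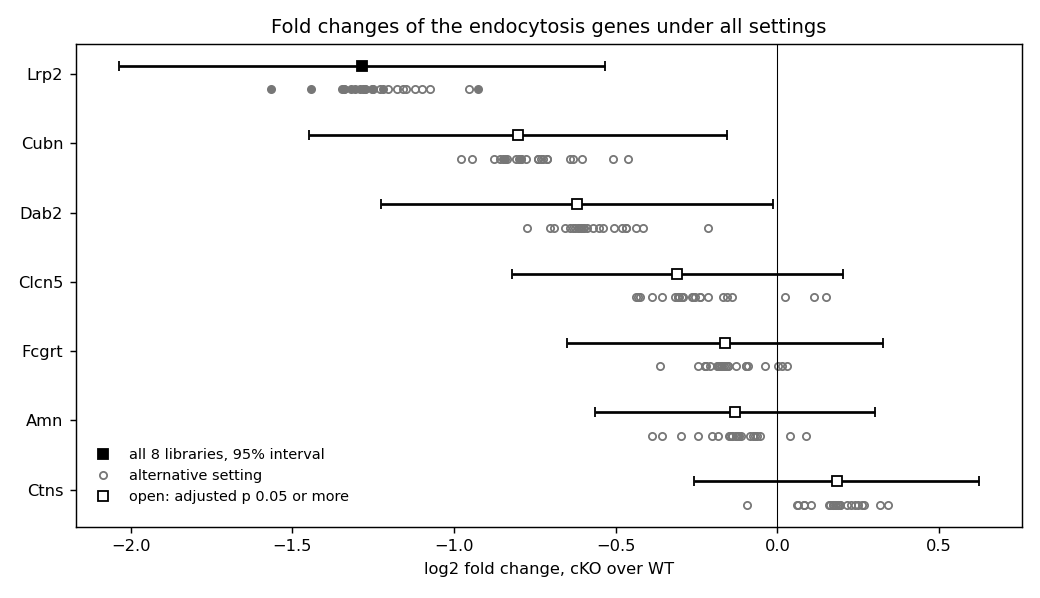
Log2 fold change, cKO over WT, of each member with its 95% interval (squares, filled where the edgeR adjusted p was under 0.05) and, below it, the value under each alternative setting (circles, filled by the same rule). Lrp2 is below 0 under every setting shown, from -1.57 to -0.93, while the values of Amn, Clcn5, Ctns and Fcgrt fall on both sides of 0.

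The fall of Lrp2 kept its sign in all 24 alternatives fitted and kept its call in only 13 of them. Leaving out 1 library at a time gave log2 fold changes from -1.57 to -1.10, and the edgeR adjusted p was 0.0581 and 0.0809 without WT 3 or WT 4 and 0.0547, 0.0540 and 0.0916 without cKO 2, cKO 3 or cKO 4. With a sex term the value was -1.20 (edgeR adjusted p = 0.1003). Within the libraries without Y-linked reads, 3 cKO against WT 1, it was -1.25, and within those with them, cKO 3 against 3 WT, it was -1.16 (edgeR adjusted p = 0.423 in each), and in either case 1 genotype was represented by 1 kidney that was assumed to vary like the rest. Without WT 3 and WT 4 it was -0.95 (edgeR adjusted p = 0.208).

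Fold change followed exon length across the tested genes, and 4 of the 7 members, Lrp2, Cubn, Dab2 and Amn, lay below the middle 50% of their own length class while 3 lay within it. Part of every class lies below its middle 50% by definition. The lower bound was -0.74 for Lrp2 and Cubn, -0.45 for Dab2 and -0.08 for Amn. Cubn, at -0.80, and Amn, at -0.13, lay close to theirs. The median log2 fold change was 0.33 for 1690 protein-coding genes with under 2 kb of merged exons and -0.40 for 725 with 12 kb or more. Lrp2 and Cubn belong to the second class, and 6.62% and 20.6% of its genes had a log2 fold change at or below theirs. The level of the long class relative to the short, as a mean log2 deviation from each gene's mean, was -0.08, -0.72, -0.39 and -0.34 in cKO 1 to cKO 4 and -0.28, -0.29, 1.24 and 0.85 in WT 1 to WT 4. WT 3 and WT 4 were also the libraries highest in Lrp2, Cubn, Dab2 and Clcn5, and cKO 2 was lowest in those 4. With an offset that removes the length trend from each library the log2 fold change of Lrp2 was -0.93 (edgeR adjusted p = 0.0416), that of Dab2 -0.42 and that of Amn -0.36 (edgeR adjusted p = 0.192 and 0.141).

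**Figure D3:**
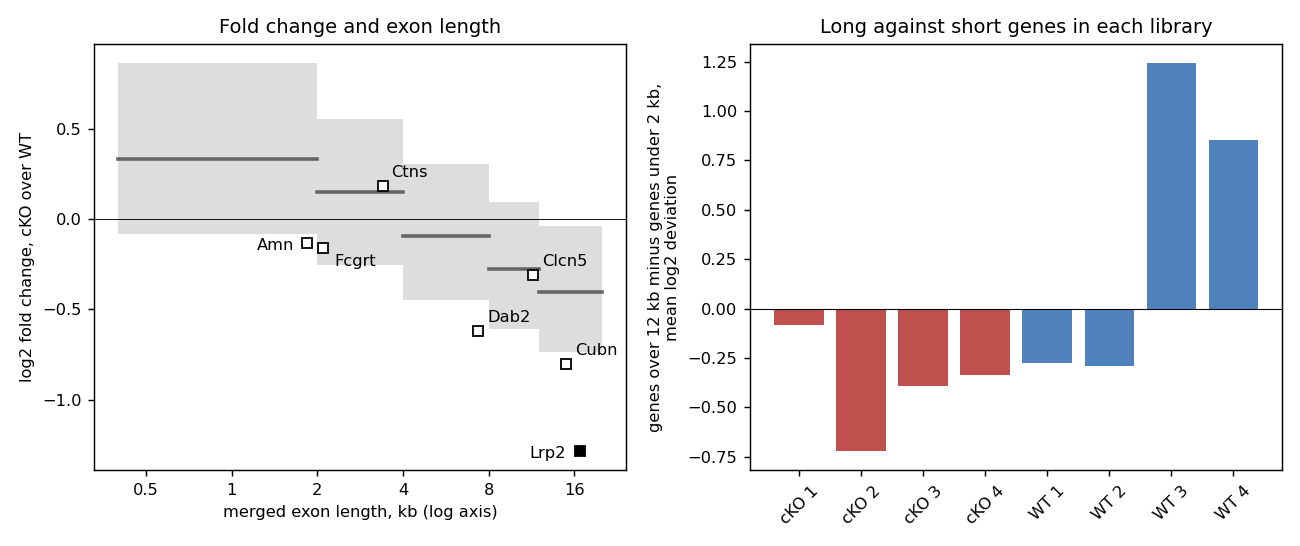
Left, log2 fold change, cKO over WT, of the members (squares, filled where the edgeR adjusted p was under 0.05) against merged exon length in kb on a log axis, with the median (line) and the middle 50% (grey) of protein-coding genes in 5 length classes. Right, mean log2 deviation of genes of 12 kb or more minus that of genes under 2 kb in each library, which reaches 1.24 in WT 3 and 0.85 in WT 4 and is below 0 in the other 6.

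Levels of different members were compared per kilobase of merged exons, which is a lower bound where a gene's transcripts do not use all its exons. In cKO kidneys the order was Fcgrt with 103 ± 18.8 CPM per kb, Amn with 64.4 ± 5.71, Dab2 with 33.6 ± 6.99, Lrp2 with 27.6 ± 11.5, Cubn with 11.2 ± 3.79, Ctns with 7.31 ± 1.38 and Clcn5 with 6.66 ± 0.522 (SD, n = 4). In WT kidneys it was Fcgrt with 115 ± 14.9 CPM per kb, Amn with 70.6 ± 12.5, Lrp2 with 67.2 ± 17.3, Dab2 with 51.7 ± 14.9, Cubn with 19.6 ± 4.41, Clcn5 with 8.25 ± 2.55 and Ctns with 6.43 ± 0.727 (SD, n = 4). In cKO the library values of Dab2 and Lrp2 overlapped, as did those of Cubn, Ctns and Clcn5 with each other, and in WT those of Amn, Lrp2 and Dab2 overlapped with each other and those of Clcn5 and Ctns did. In cKO megalin lay below amnionless, since the highest Lrp2 library had 42.2 and the lowest Amn library 58.0 CPM per kb. It also lay below in WT 1, at 63.2 against 81.3 CPM per kb, and in WT 2, at 44.9 against 79.5. Lrp2 exceeded Amn in WT 3, at 75.7 against 54.3 CPM per kb, and in WT 4, at 84.9 against 67.3. These 2 libraries were the highest in long genes. By CPM, Lrp2 made up 35.1% of the summed group means of the 7 members in cKO and 49.1% in WT.

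Within libraries, megalin was lower relative to cubilin in cKO kidneys. The log2 CPM of Lrp2 minus that of Cubn, genes of similar exon length, was 1.64, 1.53, 1.41 and 1.15 in cKO 1 to cKO 4, against 1.93, 1.86, 1.85 and 2.07 in WT 1 to WT 4. All cKO values lay below all WT values, a mean difference of -0.49 that ranged from -0.56 to -0.40 when 1 library was left out, and it was not tested. Dab2 minus Lrp2 was -0.83 ± 0.36 in cKO and -1.57 ± 0.16 in WT (SD, n = 4 each), again without overlap. Cubn minus Amn was 0.43 ± 0.57 in cKO and 1.16 ± 0.58 in WT (SD, n = 4 each), and these overlapped.

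Some markers of the proximal tubule and of the loop, distal tubule and collecting duct were called lower as well. The members were read against those of the proximal tubule. Of 16 proximal tubule markers 4 fell with edgeR, 9 with DESeq2 and 5 with limma-voom. Over all genes these tools called 987, 1448 and 934 lower. The 4 were the phosphate transporter Slc34a1, the medium-chain acyl-CoA synthetase Acsm2 and, chosen after their values were seen, the glucose transporter Slc5a2 and the lactate transporter Slc5a12. The list's median log2 fold change was -0.80 and its summed level 5274 to 14231 CPM in cKO and 17353 to 24245 CPM in WT. In a whole kidney, fewer proximal tubule cells and less of these RNAs per cell cannot be told apart. The calls of Slc34a1 and Acsm2 were lost with a sex term and without WT 3 and WT 4, that of Slc34a1 also in 5 of the 8 fits that left out 1 library and that of Acsm2 without cKO 4. Of 7 tested markers of the loop, distal tubule and collecting duct 3 fell and 1 rose, with a list median of -0.93. The sodium chloride cotransporter Slc12a3 averaged 169 ± 33.8 CPM in cKO and 326 ± 88.3 CPM in WT, and the water channel Aqp2, which rose, 1111 ± 670 CPM in cKO and 282 ± 111 CPM in WT (SD, n = 4 each). The call of Aqp2 was lost with a sex term, without WT 3 and WT 4 and without replicate 4 of each group. Slc12a3, Pvalb and Slc4a1 were named after their values were seen, and Pvalb and Slc4a1 fell by 4.92 and 1.83 on the log2 scale. Umod and Slc12a1, named by rule, did not pass, at log2 fold changes of -0.71 and -0.93 (edgeR adjusted p = 0.137 and 0.0962). Slc34a1 averaged 1515 ± 833 CPM in cKO and 4140 ± 979 CPM in WT, and Miox, which did not pass, 1285 ± 777 CPM in cKO and 1969 ± 572 CPM in WT (SD, n = 4 each). The mean log2 CPM of the 16 markers was 9.34, 7.98, 9.21 and 8.48 in cKO 1 to cKO 4, and 9.57 to 9.83 in WT. The order of the cKO libraries was the same for Lrp2, Cubn, Dab2 and Clcn5.

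Relative to this marker mean, Lrp2 was 0.00 ± 0.15 in cKO and 0.38 ± 0.38 in WT and Cubn -1.43 ± 0.20 in cKO and -1.55 ± 0.33 in WT on the log2 scale (SD, n = 4 each), and both overlapped. Ctns was -4.13 ± 0.71 in cKO and -5.27 ± 0.19 in WT, and Fcgrt -1.01 ± 0.46 in cKO and -1.80 ± 0.20 in WT (SD, n = 4 each), with every cKO library above every WT library. These are differences of levels within a library and were not tested. The marker mean itself lay lower in every cKO library than in every WT library, so a gene of unchanged CPM stands higher in cKO on this scale. By CPM neither Ctns nor Fcgrt passed the threshold, at log2 fold changes of 0.18 and -0.16. Markers of other cells that could hold Dab2, Ctns, Fcgrt or B2m moved in the same comparison. Of 10 macrophage markers 9 rose, with 0 of the 10 at a level of 0 and a summed level of 455 to 789 CPM in cKO and 116 to 232 CPM in WT. The remaining marker Csf1r, named after its value was seen, had a log2 fold change of -0.64 and did not pass (edgeR adjusted p = 0.156). The lysozyme Lyz2 averaged 318 ± 147 CPM in cKO and 41.6 ± 27.5 CPM in WT (SD, n = 4 each). Of 7 fibroblast markers 6 rose and Pdgfra, named after its value was seen, fell, with a summed level of 438 to 674 CPM in cKO and 119 to 204 CPM in WT. Of 8 endothelial markers 0 rose and 2 fell, Kdr and Tek, named after their values were seen, with a summed level of 212 to 281 CPM in cKO and 243 to 321 CPM in WT. Emcn, Pecam1 and Egfl7, named by rule, had log2 fold changes of -0.55, 0.29 and 0.38. They did not pass (edgeR adjusted p = 0.133, 0.346 and 0.273). Of 6 podocyte markers 0 passed with edgeR, DESeq2 or limma-voom, and 0 were at an unadjusted edgeR p under 0.05. The part of these cells in the members' values was not tested. The tubular injury markers all rose, 6 of 6, with Havcr1 at 549 ± 306 CPM in cKO and 2.00 ± 0.134 CPM in WT (SD, n = 4 each).

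**Figure D4:**
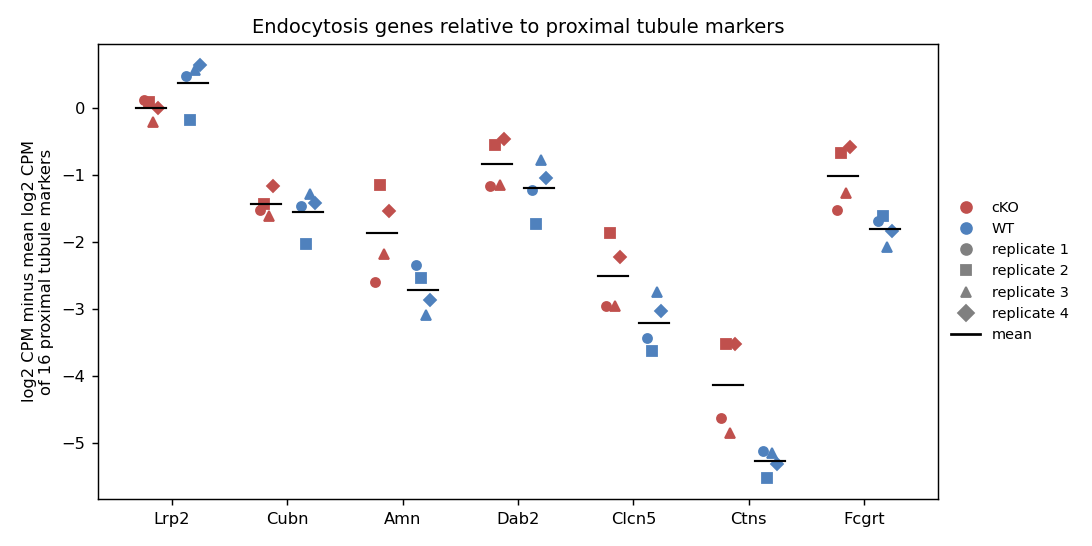
Log2 CPM of each member minus the mean log2 CPM of 16 proximal tubule markers in the same library, cKO left of WT, with a marker shape for each replicate number and a line at the group mean. Ctns and Fcgrt show every cKO library above every WT library, while Lrp2 and Cubn overlap between the groups. The marker mean itself is lower in every cKO library than in every WT library, which raises unchanged genes in cKO on this scale.

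The rest of the route was read from lists of 8 roles. Of 110 tested genes in them 9 rose and 12 fell, 19.1% called, beside the 16.7% of all tested genes. With a sex term 9 were called higher and 0 lower, and without WT 3 and WT 4 there were 3 called higher and 0 lower. The 9 genes called higher with a sex term were not all the same as before. B2m and the protease Lgmn were not among them (edgeR adjusted p = 0.0542 and 0.164). DESeq2 called 7 receptor partners and adaptors, 2 endosomal Rab and retrieval genes, 5 of the proton pump and exchanger list and 11 ligand and vitamin genes, where edgeR called 4, 1, 3 and 6. DESeq2 also called more genes over all, 3165 against 2310 with edgeR. Of the 15 receptor partners and adaptors, B2m rose and 3 fell, with a list median of -0.38. Lrpap1, the chaperone that escorts newly made megalin through the secretory pathway, had 381, 227, 409 and 279 CPM in cKO 1 to cKO 4, against 665, 702, 538 and 641 CPM in WT 1 to WT 4. Its groups did not overlap, and it fell by 0.97 on the log2 scale (SE 0.26, edgeR adjusted p = 0.0262). The brush border scaffold Pdzk1 fell to 221 ± 109.6 CPM in cKO, against 559 ± 47.7 CPM in WT, and the inositol phosphatase Inpp5b to 49.6 ± 3.44 CPM in cKO, against 81.3 ± 21.3 CPM in WT (SD, n = 4 each; edgeR adjusted p = 0.0307 and 0.0493). The call of Lrpap1 was lost without WT 2, WT 4 or cKO 4, that of Pdzk1 without each of these or WT 3, and that of Inpp5b without each library in turn except WT 1, and all 3 were lost without WT 3 and WT 4.

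Of the general endocytic machinery, 0% of the clathrin list, 6.67% of the Rab list and 14.3% of the pump and exchanger list were called. Of all tested genes 16.7% were called. On simulated counts edgeR called 22% of genes changed 2-fold and 98% of those changed 4-fold, so a gene that did not pass may still have changed. Of 16 genes of the clathrin coat and vesicle scission 0 passed with edgeR, with 2 at an unadjusted p under 0.05, 1 called by DESeq2 and 0 by limma-voom, and the list median was 0.07. The clathrin heavy chain Cltc averaged 292 ± 59.4 CPM in cKO and 275 ± 45.2 CPM in WT, and the adaptor subunit Ap2m1 338 ± 73.1 CPM in cKO and 280 ± 27.3 CPM in WT (SD, n = 4 each). Of 15 endosomal Rab and retrieval genes 1 passed, the recycling factor Rab11fip2 (log2 fold change -0.58 without WT 3 and WT 4), which fell to 7.40 ± 1.08 CPM in cKO, against 15.7 ± 5.46 CPM in WT (SD, n = 4 each; edgeR adjusted p = 0.0208). Of 21 genes of the vacuolar proton pump and endosomal chloride exchangers 3 fell and 0 rose. These were the exchanger Clcn3 (log2 fold change -0.67 without WT 3 and WT 4), at 54.9 ± 15.5 CPM in cKO and 128 ± 48.2 CPM in WT, the exchanger Clcn6, at 8.76 ± 2.16 CPM in cKO and 16.2 ± 4.605 CPM in WT, and the pump subunit Atp6v0a2, at 42.9 ± 8.03 CPM in cKO and 68.8 ± 5.35 CPM in WT (SD, n = 4 each; edgeR adjusted p = 0.0207, 0.0490 and 0.0351). Each of these 4 genes lost its call with a sex term, without WT 3 and WT 4 and in at least 4 of the 8 fits that left out 1 library.

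Of 12 lysosomal genes 2 rose and 0 fell, 16.7% called as over all tested genes, with a list median of 0.41. Ctsd, the aspartic protease cathepsin D, rose to 2621 ± 902 CPM in cKO, against 732 ± 145 CPM in WT, and the asparaginyl protease Lgmn to 1406 ± 255 CPM in cKO, against 751 ± 145 CPM in WT (SD, n = 4 each; edgeR adjusted p = 0.00367 and 0.0381). The groups did not overlap for either gene, and the call of Lgmn, not that of Ctsd, was lost with a sex term and when single libraries were left out. Both calls were lost without replicate 4 of each group and without WT 3 and WT 4. In the latter fit the log2 fold change of Ctsd was 1.65 (edgeR adjusted p = 0.0631). Macrophages also express these proteases, and the macrophage markers above rose in the same libraries. The part of macrophages in the values of Ctsd and Lgmn was not tested. Of 11 tested relatives in the LDL receptor family 1 rose and 1 fell. Lrp1, the widely expressed scavenger receptor, rose to 48.8 ± 11.3 CPM in cKO, against 21.6 ± 6.38 CPM in WT, and the Wnt co-receptor Lrp6 fell to 41.7 ± 11.5 CPM in cKO, against 97.3 ± 43.6 CPM in WT (SD, n = 4 each; edgeR adjusted p = 0.0108 and 0.0292). The call of Lrp6 was lost without WT 3, WT 4, cKO 2, cKO 3 or cKO 4, and without WT 3 and WT 4 together its log2 fold change was -0.50. That of Lrp1 was lost without the 2.5-month pair and without replicate 4 of each group.

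Of 8 proximal tubule transcription factors 3 fell and 0 rose, with a list median of -1.04. Hnf4a, a nuclear receptor of the mature tubule, averaged 322 ± 88.2 CPM in cKO and 642 ± 142 CPM in WT (SD, n = 4 each; edgeR adjusted p = 0.0366). Ppara, the nuclear receptor of fatty acid oxidation, averaged 11.9 ± 6.06 CPM in cKO and 31.0 ± 10.4 CPM in WT (SD, n = 4 each; edgeR adjusted p = 0.0374). Both of these calls were lost with a sex term, without WT 3 and WT 4 and in 6 of the 8 fits that left out 1 library.

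**Figure D5:**
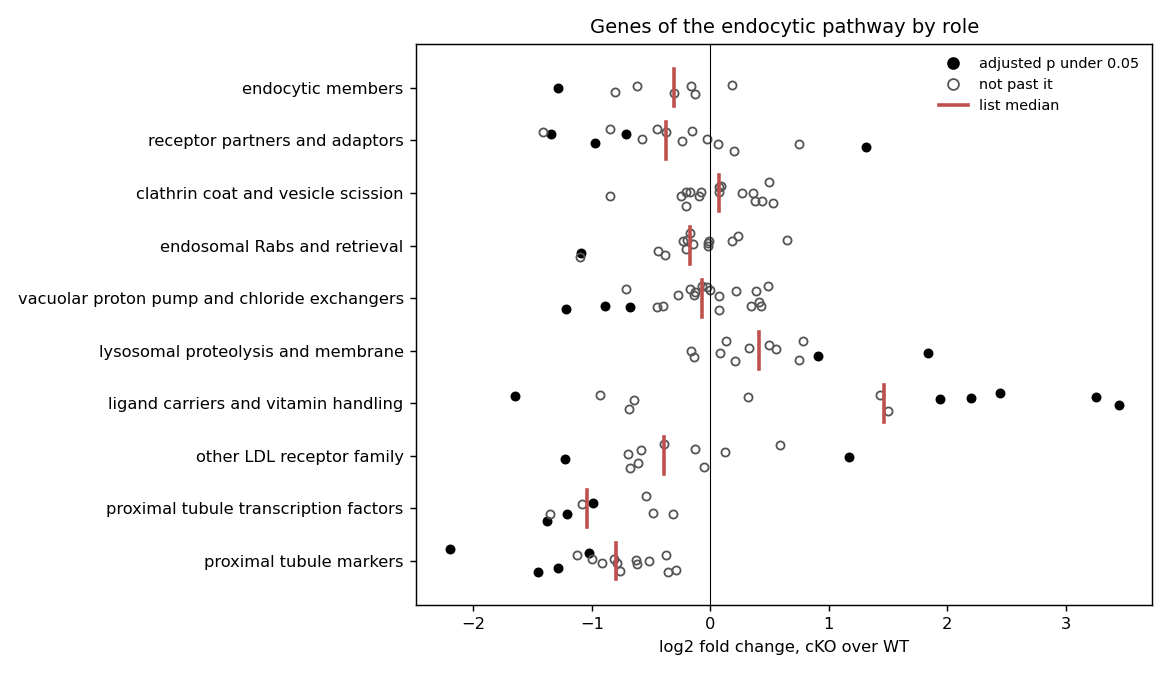
Log2 fold change, cKO over WT, of each tested gene by role, with genes past an edgeR adjusted p of 0.05 filled and the list median as a red line. The clathrin list lies around 0 with a median of 0.07, the transcription factors have a median of -1.04 and the lysosomal genes one of 0.41.

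Over the 8 libraries the gene most like Lrp2 was Ndst1, an enzyme of heparan sulfate synthesis, followed by the transporter family gene Abca13 and the gap junction gene Gjb2. The measure was the root mean square difference of log2 CPM after centring each gene, over 8698 other genes with a mean of at least 10 CPM, and it was 0.152, 0.161 and 0.173. Cubn was the 51st gene in this order with 0.285, Dab2 the 496th with 0.444 and Amn the 4152nd with 0.818. For Cubn the nearest were Ninl, Lzts3 and the glutamate transporter Slc1a1, at 0.0901, 0.110 and 0.117, and Dab2 was the 73rd with 0.203. Ndst1, whose call was lost with a sex term and without cKO 4, averaged 35.02 ± 11.6 CPM in cKO and 79.8 ± 19.0 CPM in WT (SD, n = 4 each). Without WT 3 and WT 4 its log2 fold change was -0.85. Ndst1, Abca13 and Gjb2 all lost their calls in that fit (edgeR adjusted p = 0.159, 0.152 and 0.182).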

How the data were processed

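The deposited files hold expected counts, which the authors estimated for each Ensembl gene in 8 libraries and left unscaled. STAR, RSEM and mm10 appear in the submitters' processing notes. Their versions, the annotation release and whether the stranded libraries were counted by strand are not given in what was used here. GENCODE M21 of the same build supplied symbols for 47224 of 47643 identifiers, positions and merged exon lengths.

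Expected counts were rounded. After filterByExpr by genotype 13829 genes were left and scaled by TMM. The edgeR quasi-likelihood test (robust, two-sided, cKO over WT) was run on them, with p-values adjusted by Benjamini-Hochberg across the whole table and called under 0.05. Members were also tested by exact permutation of log2 CPM (prior count 2). The labels do not say that kidneys of a group came from separate litters, so p-values measure the spread between these samples. The most alike libraries of a genotype, WT 3 and WT 4, had a mean chi-square of 17.1 a gene and were kept as 2 samples.

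The members and gene lists were chosen with earlier results of these data known. Other genes were named by rule: in a pathway list, up to 4 called genes by smallest adjusted p (with 0 called, the 2 of highest CPM); in a cell type list, the 3 of highest CPM; and the 3 nearest in pattern to Lrp2 and Cubn. Some genes that the rule names are not reported here, though the list counts include them. The sex term split libraries at 10 Y-linked counts. Alternatives covered scaling, filters, other tools, age, sex and replicate terms and left-out libraries, among them replicate 4 of each group, which carry later numbers than the others per the file headers. The length offset, a lowess curve for each library, and leaving out WT 3 and WT 4 were chosen after seeing the data, as were the motifs. The tests were checked on simulated counts, where edgeR called 22% of 100 genes changed 2-fold and 98% of 100 changed 4-fold. Software was R 4.3.3 with edgeR 4.0.16, limma 3.58.1 and DESeq2 1.42.0, and Python 3.11.15.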

Additional observations from a re-analysis of the deposited data

How the results depend on the processing

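Lrp2 was lower in cKO under all 24 alternatives and Cubn and Dab2 likewise, while the calls depended on the setting. The 7 members had 1 call in all, but 0 with library size alone, with a sex term, within either sex, without replicate 4 of each group and without WT 3 and WT 4, and 2 with DESeq2, an age term or the replicate block. Leaving out 1 library gave 0 to 1. Lrp2 missed the threshold at log2 fold changes of -1.12 with library size alone, -1.20 with a sex term, -1.25 and -1.16 within libraries without and with Y-linked reads, -1.07 without replicate 4 of each group and -0.95 without WT 3 and WT 4, and ran from -1.57 to -1.10 with 1 library left out. Cubn passed at -0.79 with DESeq2, -0.84 with an age term and -0.85 with the replicate block, and ran from -0.98 to -0.60 with 1 library left out.

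Same-numbered cKO and WT libraries had residual correlations of -0.08, 0.28, 0.12 and -0.00, so the numbers were not taken as pairs; the replicate block gave 2208 calls over all genes against 2310. Over all genes and over the 110 pathway genes, the calls numbered 941 and 9 with a sex term, 120 and 1 among libraries lacking Y-linked reads, 480 and 6 among those that had such reads, 1397 and 10 without the 2.5-month pair, 568 and 2 without replicate 4 of each group, 587 and 3 without WT 3 and WT 4, and 1155 to 3093 and 7 to 28 with 1 library left out, against 2310 and 21. DESeq2 called 3165 genes over all and 34 pathway genes. Library size alone moved the median log2 fold change of all genes to 0.15.

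Signs turned for members that had not passed: Amn at 0.039 with library size alone and 0.088 within libraries with Y-linked reads; Fcgrt at 0.013 with library size alone, 0.0013 within libraries with Y-linked reads and 0.031 without the 2.5-month pair; Ctns at -0.095 within libraries with Y-linked reads; Clcn5 at 0.11 within libraries without Y-linked reads, 0.023 with the length offset and 0.15 without WT 3 and WT 4. Within libraries with Y-linked reads Cox10 was 0.072, Cltc -0.062, Podxl 0.40 and Synpo 0.48. Podxl was also 0.049 with upper quartile scaling, 0.17 with library size alone, 0.063 without the 2.5-month pair and 0.044 with the length offset, Synpo 0.055 with library size alone and 0.073 with the length offset, and Cltc -0.11 without the 2.5-month pair. With 1 library left out Podxl ran from -0.18 to 0.18, Synpo from -0.25 to 0.15 and Cltc from -0.024 to 0.20. No cause of these shifts was tested. The genotype by sex interaction had an edgeR adjusted p of 1.00 for every member. Sex, long-gene level and genotype are unevenly spread over 8 kidneys, and their parts in the members' values cannot be told apart.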

Other observations

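Genes of the ligands and vitamins that this route carries had 5 of 12 members called higher and 1 lower with edgeR, beside 9.57% and 7.14% of all tested genes, and a list median log2 fold change of 1.47. DESeq2 called 7 of them higher and 4 lower, and over all genes 1717 higher and 1448 lower. Gc, the vitamin D-binding protein that megalin takes up, averaged 347 ± 99.7 CPM in cKO and 31.7 ± 36.6 CPM in WT, where WT 1 held 86.4 CPM and the other WT libraries 10.7 to 17.4 CPM (SD, n = 4 each; log2 fold change 3.45, SE 0.67, edgeR adjusted p = 0.00823). The log2 fold change of Gc was 4.68 without WT 1, ran from 3.16 to 4.68 with 1 library left out, and was 2.81 without WT 3 and WT 4, where it did not pass (edgeR adjusted p = 0.0661), nor did it pass within libraries without Y-linked reads or without replicate 4 of each group. Cyp27b1, which makes the active form of vitamin D in the proximal tubule, had 15.1, 23.3, 8.54 and 25.7 CPM in cKO 1 to cKO 4, against 1.55, 1.49, 1.47 and 2.91 CPM in WT 1 to WT 4. The change, 3.26 on the log2 scale with an SE of 0.39 (edgeR adjusted p = 5e-04), stayed past the threshold under every alternative fitted. The retinol-binding protein Rbp4 averaged 6.44 ± 2.18 CPM in cKO and 1.70 ± 0.714 CPM in WT, and the lipid carrier Apoe, which macrophages also make, 690 ± 233 CPM in cKO and 127 ± 72.9 CPM in WT (SD, n = 4 each; edgeR adjusted p = 0.00772 and 0.00331). The call of Rbp4 was lost without WT 3 and WT 4 and without replicate 4 of each group. The retinol transporter Stra6 rose and the selenium carrier Selenop fell, at log2 fold changes of 2.20 and -1.65 (edgeR adjusted p = 0.0131 and 0.0386), and these 2 were named after their values were seen. The folate receptor Folr1 and the cobalamin carrier Tcn2, also named after their values were seen, had log2 fold changes of -0.64 and -0.69 and did not pass (edgeR adjusted p = 0.109 and 0.126).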
